A study of Oryza sativa with 60 samples.

Results

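Messenger RNA of 1.4 mm anthers was compared with that of 1.2 mm anthers, both from the wild-type rice Kitaake, a japonica variety often used for transformation. Each length had 3 libraries by their titles, and these 6 libraries are part of the 30 mRNA libraries and of the 60 libraries of the series, which follows anthers from 0.4 to 2.5 mm. Both groups came from untreated greenhouse plants of the same genotype, and no other treatment or genotype is given. The deposited names also carry a number whose meaning is not stated in the sources used here. It was 10, 22 and 40 for 1.2 mm replicates 1, 2 and 3 and 10, 19 and 21 for those of 1.4 mm. One library holds RNA pooled from 20 to 30 anthers, so differences between single anthers are averaged within it. The sources used here call the replicates biological but do not say whether they came from separate plants. The p-values measure only the spread between libraries. For limma, the linear-model test used below, this spread was pooled over all 30 mRNA libraries. Replicates of most other lengths varied less than those of 1.2 and 1.4 mm. The limma SEs and p-values printed below can therefore be too small for this step.

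A rice anther carries its male germ cells inside a wall of nested cell layers. The innermost layer, the tapetum, feeds the meiocytes and then the microspores, and is later broken down. Anther length is used in grasses as a stand-in for stage, because meiosis, the release of microspores and pollen filling follow one another as the anther grows. A length class can therefore hold anthers of somewhat different stages, and the labels used here give the length and not the stage.

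The deposited values were FPKM, fragments scaled by transcript length and library, and they were summed per gene ID. The depth behind them is unknown. None of the 35594 Kitaake gene IDs occurs in the reference table (0 matched), so no ID has a name or a known role here, and markers of the tapetum, meiocytes or other anther cells could not be looked up. Genes are described by their levels, and IDs are printed for only a few of them.

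The 6 libraries held similar numbers of detected genes. At 1.2 mm, replicates 1, 2 and 3 had 19389, 19846 and 20196 genes at 1 FPKM or more, and at 1.4 mm they had 19401, 20698 and 20224. These ranges overlapped (exact two-sided permutation test, p = 0.4, adjusted p = 0.533 over 4 such tests), and 3 against 3 libraries cannot give a p below 0.1. The 1.4 mm replicate 1 stood apart in composition. There the single ID OsKitaake09g000280.v3.1, singled out after its values were seen, had 83170 FPKM, or 15.6% of the library's total, against 1858 and 10967 FPKM in replicates 2 and 3 of that size and 1157 to 3910 at 1.2 mm. This ID also varied between replicates at other lengths, with 15023, 1848 and 3755 FPKM at 0.4 mm and 1186, 3433 and 12391 at 1.8 mm. Since FPKM are relative, it can lower the other values of 1.4 mm replicate 1. Its part in this was not tested apart from that of other abundant IDs.

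Replicates of both lengths were spread more widely than those of most other lengths. Tested genes, here and below, are the 26091 with at least 1 FPKM in at least 3 of the 30 libraries. The median over them of the SD of log2(FPKM + 1) among 3 replicates was 0.312 at 1.2 mm and 0.314 at 1.4 mm. It was 0.137 at 1.6 mm, 0.210 at 1.0 mm and 0.373 at 2.5 mm, the only one of the other sizes that exceeded both. At 1.2 mm 1651 genes had an SD of at least 1 log2 unit, against 797 at 1.4 mm. Among the other lengths the highest counts were 2058 at 2.5 mm, 681 at 0.4 mm and 516 at 0.8 mm. There were 307 at 1.0 mm and 79 at 1.6 mm, the lowest count of all.

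Correlations among the 1.2 mm libraries overlapped those between the lengths. Pearson's r across the tested genes, which are not independent replicates, was 0.893 to 0.921 between replicates at 1.2 mm and 0.936 to 0.969 at 1.4 mm, and 0.821 to 0.959 between libraries of different length. Replicate 2 of 1.2 mm correlated best with the mean of the 1.0 mm libraries (0.950, against 0.924 with the other replicates of its own size). Replicate 3 of 1.2 mm correlated best with the 1.4 mm mean (0.963, against 0.926), and its closest single library was 1.4 mm replicate 1. Replicate 1 of 1.2 mm was closest to its own size (0.945, against 0.919 for 1.4 mm and 0.904 for 1.0 mm). At 1.4 mm every library was closest to its own size, but replicate 2 reached 0.887 with the 1.6 mm mean, where replicates 1 and 3 had 0.797 and 0.784.

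**Figure D1:**
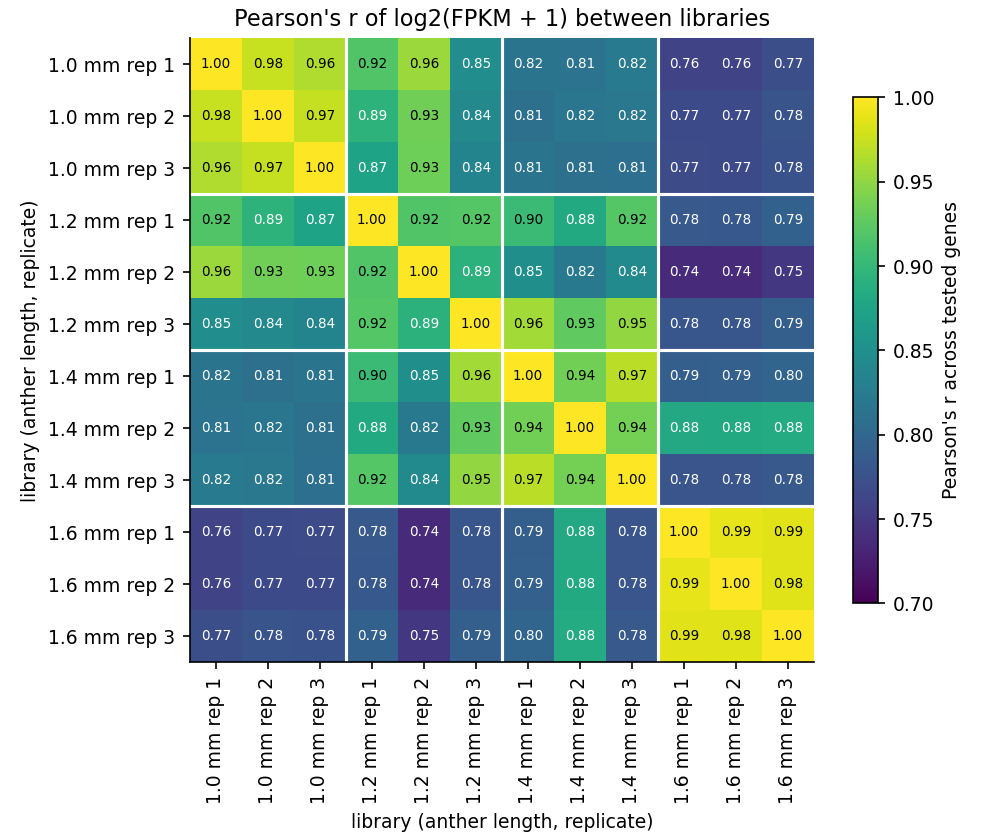
Pearson's r of log2(FPKM + 1) across the 26091 tested genes for each pair of the 12 libraries of 1.0, 1.2, 1.4 and 1.6 mm, with libraries on both axes and r as colour and number. Within 1.2 mm r lies between 0.893 and 0.921, while 1.2 mm replicate 3 reaches 0.959 with 1.4 mm replicate 1.

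To ask how far each library had moved along the change between the neighbouring lengths, genes were taken that differed between 1.6 and 1.0 mm. None of the 6 libraries enters those means, but they share in the estimate of the spread, which comes from all 30 libraries. Of all tested genes 13.3% were higher at 1.6 mm (3482 genes) and 9.7% lower (2531 genes). Fitted on the other 24 libraries alone, as added after seeing the data, the contrast called 13.4% higher and 9.8% lower. The mean level of each set was scaled so that the 1.0 mm mean is 0% and the 1.6 mm mean is 100%. On the genes higher at 1.6 mm, replicates 1, 2 and 3 of 1.2 mm lay at 17.5%, 7.02% and 32.5%, and those of 1.4 mm at 30.9%, 65.6% and 35.2%. With FPKM as deposited the lengths overlapped, since 1.2 mm replicate 3 lay above 1.4 mm replicate 1, and 1.4 mm replicate 2 alone was past the midpoint. This overlap depended on the setting. After quantile normalization the difference between the lengths was 24.3 points, and 24.6 on genes that changed by at least 2 log2 units. In both cases the exact two-sided permutation test gave p = 0.1, its smallest value, which needs lengths that do not overlap.

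On the genes lower at 1.6 mm the order was different. Here 1.2 mm replicates 1, 2 and 3 lay at 39.4%, 6.34% and 46.9% of the way, and 1.4 mm replicates 1, 2 and 3 at 64.6%, 66.2% and 56.5%. The lengths did not overlap on this set, and 1.2 mm replicate 2 was close to the 1.0 mm level. Means were 30.9% ± 21.6 at 1.2 mm and 62.5% ± 5.21 at 1.4 mm (SD, n = 3; exact two-sided permutation test, p = 0.1, the smallest possible, adjusted p = 0.4). For the genes higher at 1.6 mm they were 19.0% ± 12.8 and 43.9% ± 18.9 (exact two-sided permutation test, n = 3, p = 0.2, adjusted p = 0.4), so neither difference passed the test. The difference between the lengths on the genes higher at 1.6 mm was 14.1 points without 1.4 mm replicate 2, against 24.9, and on the genes lower there 19.3 points without 1.2 mm replicate 2, against 31.6. With genes chosen on the 24 other libraries the differences were 25.1 and 32.1 points. In RNA of whole anthers, fewer cells of a type and less RNA per cell cannot be told apart.

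**Figure D2:**
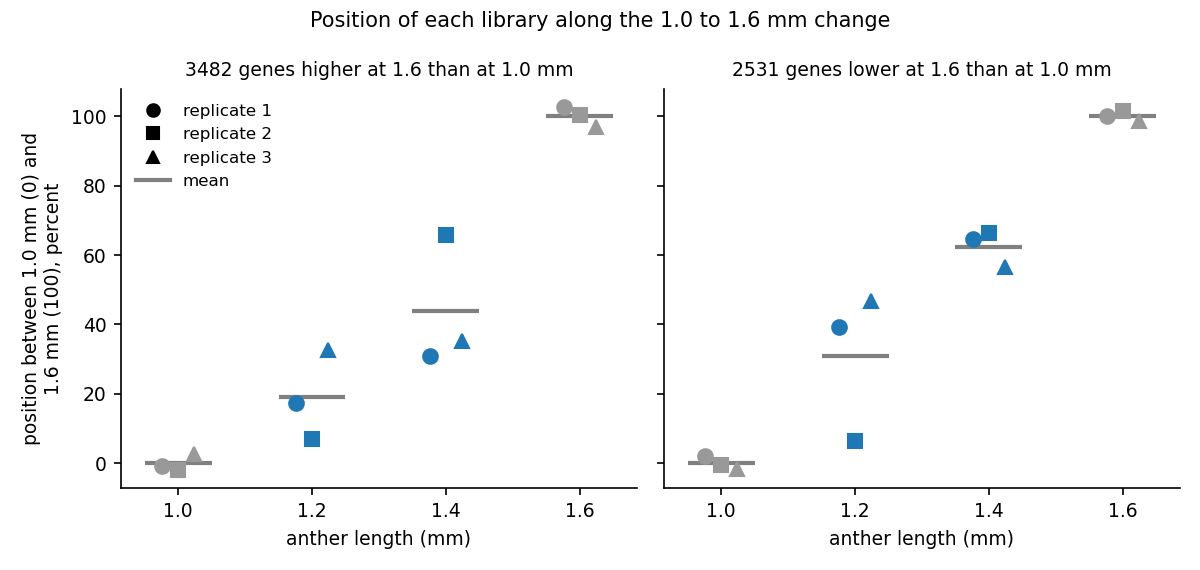
Position of each library, in percent of the way from the 1.0 mm mean (0) to the 1.6 mm mean (100), against anther length, for genes higher (left) and lower (right) at 1.6 than at 1.0 mm; points are libraries and bars are means. The 1.2 mm libraries range from 7.02% to 32.5% on the left and from 6.34% to 46.9% on the right, and 1.4 mm replicate 2 lies at 65.6% on the left.

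Between 1.2 and 1.4 mm, 776 genes were higher and 597 lower in limma, fitted on all 30 libraries. A call needed a change of at least 1 on the log2(FPKM + 1) scale and an adjusted p (Benjamini-Hochberg) under 0.05. These were 2.97% and 2.29% of the tested genes, or 5.26% in all. Falls reached further than rises: 40 of the genes that fell changed by at least 4 log2 units and 8 of the genes that rose, and the extremes were -7.35 and 4.40. The median size of the change was 1.72 for falls and 1.55 for rises, and the median over all tested genes was 0.07. At their higher length, 77 of the genes that fell and 66 of those that rose had a mean of at least 100 FPKM. A mean under 1 FPKM at the lower length was seen for 240 of the falling and 186 of the rising genes.

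**Figure D3:**
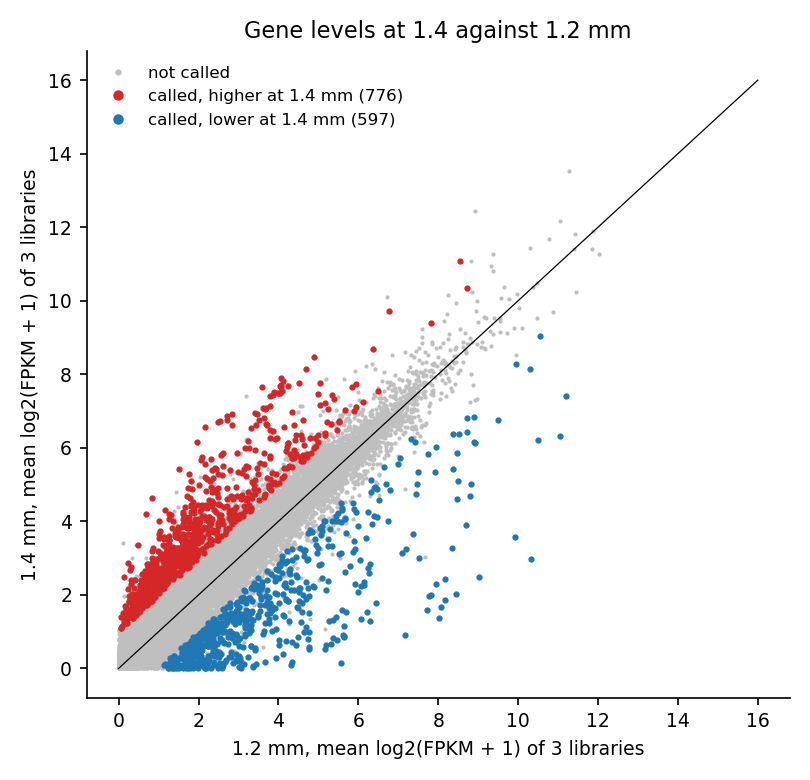
Mean log2(FPKM + 1) of the 3 libraries of 1.4 mm against that of the 3 libraries of 1.2 mm, 1 point per tested gene, with the line of equal level. Called genes are coloured, 776 of them higher and 597 lower at 1.4 mm, and the falls extend farther from the line than the rises.

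These calls rested on the spread of all 10 lengths. A limma fit on the 6 libraries alone called 0 genes, with 2139 at an unadjusted p under 0.05, and on all libraries 447 genes were called without 1.2 mm replicate 2 and 2365 without 1.2 mm replicate 3. In all, 376 of the 1373 genes (197 higher, 179 lower) were called in the same direction whichever of the 6 libraries was left out. For 904 of the 1373 the 3 values at one length did not overlap those at the other: 448 of the rising and 456 of the falling genes, where 6.34% and 5.94% of all tested genes lay above or below without overlap. The balance depended on scaling. Rises made up 56.5% of calls with FPKM as deposited and 40.8% once each library was rescaled to the same sum. That rescaling moved the median log2 change of all genes from 0.07 to -0.04. With a sum that left out the 10 IDs holding at least 1% of any of the 6 libraries, an unplanned alternative, rises were 52.3% and the median 0.04. The share of rises was 67.3% without 1.4 mm replicate 1.

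Within 1.2 mm the called genes were ordered mostly the same way. In 626 of the 776 rising genes the highest 1.2 mm library was replicate 3, and in 602 the lowest was replicate 2. In 491 of the 597 falling genes replicate 2 was the highest and in 439 replicate 3 was the lowest. These orders were not counted over all tested genes, so whether they are particular to the called genes was not tested. The rising genes held 1.55%, 0.517% and 3.1% of the FPKM in replicates 1, 2 and 3 of 1.2 mm, and 5.63%, 5.62% and 7.36% in those of 1.4 mm. For the falling genes these shares were 9.36%, 18.5% and 3.65% at 1.2 mm and 1.01%, 0.635% and 1.55% at 1.4 mm. The 1.2 mm values are thus spread over a range that reaches toward 1.4 mm in replicate 3 for both sets, which were chosen on these same libraries.

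The other lengths show the levels of these genes before and after the step. Their levels do not enter the fold change between 1.2 and 1.4 mm, but their spread entered the test. Of the 597 falling genes 441 were also lower at 1.6 than at 1.0 mm, against 9.7% of all tested genes, and 10 were higher. With that contrast fitted on the 24 other libraries, 452 were lower. Their median was 1.13 to 2.99 FPKM in the libraries of 0.4 to 0.8 mm, 7.30 to 13.6 at 1.0 mm and 0.708 to 0.959 at 1.6 mm. Among the 8 other lengths, 390 of them (65.3%) had their highest mean at 1.0 mm, where 9.48% of all tested genes had theirs. At 1.6 mm 310 of them had a mean under 1 FPKM.

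The rising genes were divided by the same contrast. Of the 776, 409 were also higher at 1.6 than at 1.0 mm, against 13.3% of all tested genes, and 8 were lower. On the 24 other libraries 417 were higher. The median of the 409 was 0.243 to 0.318 FPKM at 1.0 mm and 8.92 to 10.4 at 1.6 mm, and it was 8.37 to 10.2 at 1.8 mm, 6.26 to 6.87 at 2.0 mm and 1.37 to 4.18 at 2.5 mm. The other 367 were not called higher at 1.6 mm, and 234 of them had a mean under 1 FPKM there and 133 a mean of 1 FPKM or more. Their median was 0.508 to 0.572 FPKM at 1.6 mm, 0.490 to 0.520 at 1.8 mm and 0.415 to 0.516 at 2.0 mm. That the 409 were higher at 1.6 than at 1.0 mm follows from how the rising genes were split. That the 367 were low at 1.6 mm follows from it in part. The levels of both sets at 1.8 and 2.0 mm did not enter the split.

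Both sets were spread widely within 1.2 mm. The median of the 409 genes was 1.94, 0.483 and 4.41 FPKM in 1.2 mm replicates 1, 2 and 3 and 6.01, 15.2 and 9.22 in those of 1.4 mm. That of the 367 genes was 2.29, 0.482 and 5.33 at 1.2 mm and 9.31, 6.88 and 13.4 at 1.4 mm. Replicate 2 of 1.4 mm was the highest of its size on the first set and the lowest on the second. A mean under 1 FPKM at both 1.0 and 1.6 mm was seen for 213 of the rising genes.

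**Figure D4:**
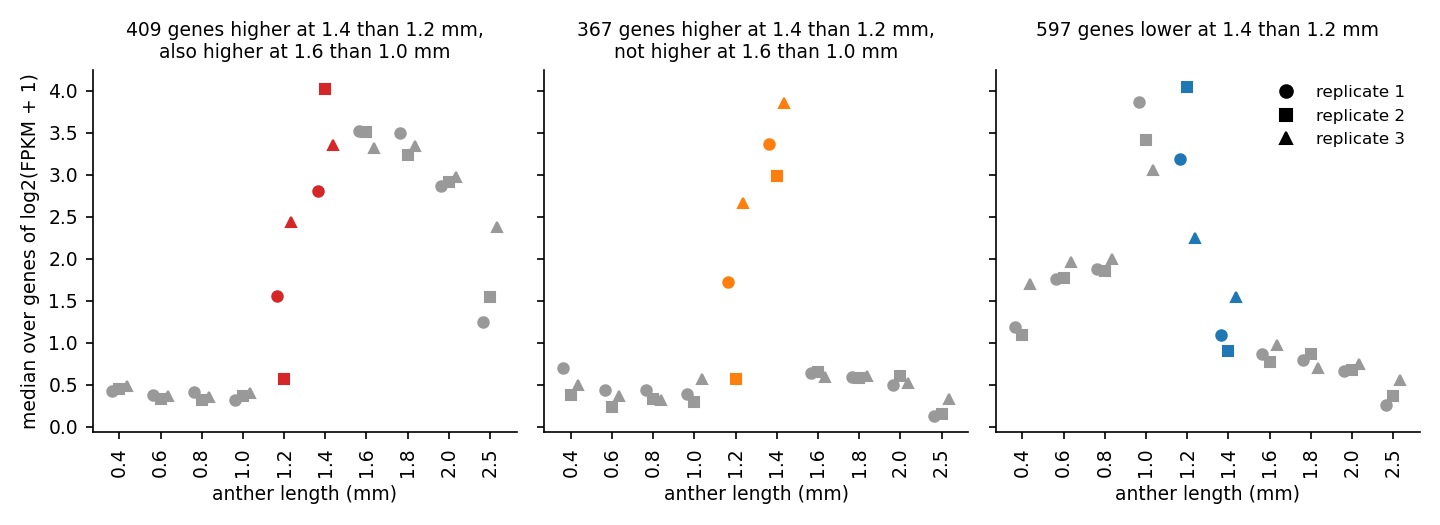
Median over genes of log2(FPKM + 1) in each of the 30 libraries against anther length, for rising genes that were also higher at 1.6 than at 1.0 mm (409), the other rising genes (367) and the falling genes (597). Coloured points are the 1.2 and 1.4 mm libraries that were compared. The 1.2 mm libraries run from 0.568 to 2.43 for the 409 genes, from 0.567 to 2.66 for the 367 and from 2.24 to 4.05 for the 597.

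The neighbouring steps share libraries with this one, so their values are only set beside it. The median log2 change of the 776 rising genes was 0.81 in the step that ends at 1.2 mm, 1.55 between 1.2 and 1.4 mm and -1.09 in the step to 1.6 mm. For the 597 falling genes it was -0.02, -1.72 and -0.16. Over all tested genes the 3 medians were -0.15, 0.07 and 0.14. The falling genes had a median near 0 in the step before and the rising genes a positive one. Choosing genes on their 1.2 and 1.4 mm levels by itself shifts both neighbouring steps opposite to the called change. These medians are therefore not read as a pattern.

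The largest rises were those of OsKitaake01g213000.v3.1 and OsKitaake02g316100.v3.1, taken among the calls whose mean at the higher length was 10 FPKM or more and whose lengths did not overlap. OsKitaake01g213000.v3.1 had 4.16, 0.164 and 29.1 FPKM in 1.2 mm replicates 1, 2 and 3 and 47.7, 262 and 89.1 FPKM in those of 1.4 mm. Every 1.4 mm library was above every 1.2 mm library, and 1.2 mm replicate 3 came nearest to them. The means were 11.1 ± 15.7 and 133 ± 113 FPKM (SD, n = 3; log2 fold change 4.21, SE 0.66, limma adjusted p = 3.39e-04). It was also called higher at 1.6 than at 1.0 mm. Its mean was 41.7 ± 3.42 FPKM at 1.6 mm, 4.72 ± 2.56 at 1.8 mm and 2.11 ± 0.512 at 2.0 mm (SD, n = 3), and 0.268 at 1.0 mm.

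OsKitaake02g316100.v3.1 was among the 367 others. It had 2.53, 0.134 and 48.6 FPKM in 1.2 mm replicates 1, 2 and 3 and 62.4, 130 and 144 FPKM in those of 1.4 mm. Again the lengths did not overlap and replicate 3 was the highest at 1.2 mm. The means were 17.1 ± 27.3 and 112 ± 43.8 FPKM (SD, n = 3; log2 fold change 4.19, SE 0.70, limma adjusted p = 6.26e-04). At 1.6 mm the mean was 0.462 ± 0.210 FPKM (SD, n = 3; log2 fold change from 1.4 mm -6.20, limma adjusted p = 1.99e-07), close to its 0.102 at 1.0 mm, and in the other libraries of the series it reached at most 4.15 FPKM.

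The largest falls were deeper. OsKitaake09g149700.v3.1 had 3062, 2648 and 264 FPKM in 1.2 mm replicates 1, 2 and 3 and 4.19, 1.35 and 39.4 FPKM in those of 1.4 mm. It was high in replicates 1 and 2, intermediate in replicate 3, and low at 1.4 mm with replicate 3 the highest there. The means were 1992 ± 1510 and 15.0 ± 21.2 FPKM (SD, n = 3; log2 fold change -7.35, SE 0.81, limma adjusted p = 4.40e-06). Its window was short: 6.64 ± 2.83 FPKM at 0.8 mm, 1552 ± 1137 at 1.0 mm and 1.54 ± 0.478 at 1.6 mm (SD, n = 3).

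OsKitaake08g129900.v3.1 had a similar window. It had 473, 996 and 36.9 FPKM in 1.2 mm replicates 1, 2 and 3 and 3.27, 1.49 and 0.671 FPKM in those of 1.4 mm, so the lengths did not overlap and 1.2 mm replicate 3 was again between the others and 1.4 mm. The means were 502 ± 480 and 1.81 ± 1.33 FPKM (SD, n = 3; log2 fold change -6.65, SE 0.68, limma adjusted p = 2.54e-06). At 0.8 mm its mean was 0.885 ± 0.129 and at 1.0 mm 376 ± 209 FPKM (SD, n = 3). All 4 of these genes were called whichever of the 6 libraries was left out. None was called in the fit on the 6 libraries alone, where limma gave each an adjusted p of 0.606.

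Some genes with large mean differences and widely spread replicates were not called. The widest spread at 1.2 mm among genes not called that averaged 10 FPKM or more there was that of OsKitaake09g046100.v3.1, with 947, 4076 and 1.17 FPKM in 1.2 mm replicates 1, 2 and 3 and 1.30, 2.91 and 58.5 in those of 1.4 mm. The 1.0 mm libraries had 996 to 2278 FPKM (mean 1795 ± 697, SD, n = 3). Replicate 1 of 1.2 mm lay just below that range, replicate 2 above it, and replicate 3 was as low as 1.4 mm (log2 fold change -4.65, SE 1.51, limma adjusted p = 0.0667). The gene was called when 1.2 mm replicate 3 (log2 fold change -7.92) or 1.4 mm replicate 3 (-6.08) was left out. OsKitaake04g230400.v3.1 was the converse, with 453, 1.49 and 1050 FPKM at 1.2 mm and 1306, 630 and 1572 FPKM at 1.4 mm. Only replicate 2 was low, near the 0.502 FPKM of 1.0 mm (log2 fold change 3.36, SE 1.23, limma adjusted p = 0.112), and it was called without 1.2 mm replicate 3 (log2 fold change 5.02). At 1.6 mm it was again at 1.10 ± 0.203 FPKM (SD, n = 3), so that high values were seen in 5 of the 6 libraries and in no other library of the series above 11.1 FPKM.

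At 1.4 mm the widest spreads among genes not called were set by replicate 2. OsKitaake01g229100.v3.1 had 88.3, 5595 and 8.96 FPKM in 1.4 mm replicates 1, 2 and 3, after 55.2, 1.63 and 4.04 at 1.2 mm. Its level was 3316 ± 446 FPKM at 1.6 mm (SD, n = 3), and replicate 2 lay above every longer library, of which the highest had 4747 FPKM. Replicate 1 lay above every shorter library and replicate 3 within their range (log2 fold change 4.23, SE 1.32, limma adjusted p = 0.0531). It was called after quantile normalization (log2 fold change 4.15), without 1.2 mm replicate 1 (5.55) and without 1.4 mm replicate 3 (6.28). OsKitaake01g262900.v3.1 had 2.65, 287 and 0.172 FPKM in the same libraries, at most 0.142 at 1.2 mm and 102 ± 7.29 at 1.6 mm (log2 fold change of 1.4 against 1.2 mm 3.32, SE 1.03, limma adjusted p = 0.0522; SD, n = 3). It was called with a pseudocount of 0.1, after quantile normalization, after either rescaling of the libraries, and without 1.4 mm replicate 1 or 3, with log2 fold changes of 3.47 to 5.12.

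**Figure D5:**
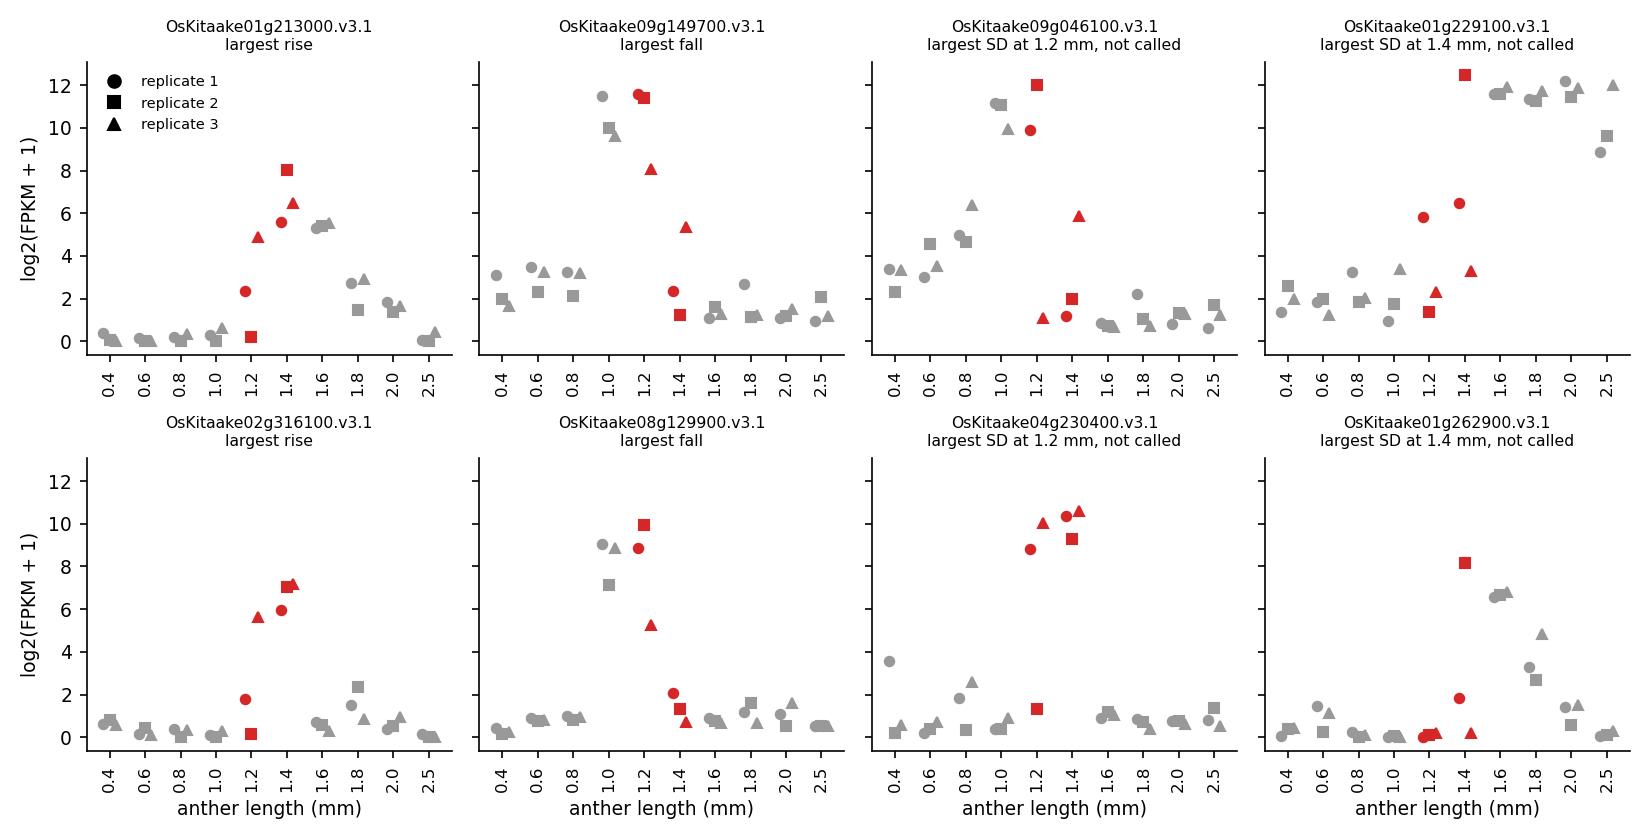
Level of 8 gene IDs as log2(FPKM + 1) in all 30 libraries against anther length: the 2 largest rises, the 2 largest falls, and the 2 genes with the widest spread among 1.2 mm and among 1.4 mm replicates that were not called. Red points are the 1.2 and 1.4 mm libraries; in the fourth column 1.4 mm replicate 2 lies at or above the 1.6 mm values while replicates 1 and 3 lie below them.

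The same single-library differences were counted over all genes. A gene was assigned to a library when that library was at least 2 log2 units from the mean of the other 2 replicates and those lay within 1 unit of each other. There were 163, 252 and 206 such genes for 1.2 mm replicates 1, 2 and 3 and 26, 316 and 48 for those of 1.4 mm, against a median of 27 in the 24 libraries of the other lengths (2 to 1041). For 1.4 mm replicate 2, 201 genes were higher than in its partners, and 170 of these were higher at 1.6 than at 1.0 mm, against 13.3% of all tested genes. With that contrast fitted on the 24 other libraries, which leaves this library out of the spread as well, 172 were, against 13.4% of all. Genes at 1 FPKM or more in fewer than 3 of the 30 libraries were not tested, which favours genes high at other lengths too. The share of all tested genes is therefore not a like baseline for genes higher in a single library. Of the 115 lower genes of 1.4 mm replicate 2, 23 were lower at 1.6 than at 1.0 mm, 0 were higher and the rest were not called. For 1.2 mm replicate 3, 80 of its 98 lower genes were lower at 1.6 than at 1.0 mm, against 9.7% of all, and 49 of its 108 higher genes were higher there.

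Replicate 2 of 1.2 mm deviated the other way. Of its 109 higher genes 73 were lower at 1.6 than at 1.0 mm, against 9.7% of all tested genes, and 2 were higher. Of its 143 lower genes 68 were higher at 1.6 mm, against 13.3% of all, and 10 lower. Replicate 1 of 1.2 mm had 57 higher genes, of which 34 were higher at 1.6 than at 1.0 mm and 0 lower. Of its 106 lower genes 12 were higher and 14 lower there, both near the shares of all tested genes.

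One group among the rising genes was set by 2 libraries. In 53 tested genes, 44 of them called higher, replicates 1 and 3 of 1.4 mm were both at least 2 log2 units above replicate 2 and above every library of 1.0, 1.2 and 1.6 mm. The median of the 44 was 124 and 134 FPKM in 1.4 mm replicates 1 and 3 and 5.11 in replicate 2, against 6.21, 6.24 and 1.99 in 1.2 mm replicates 1, 2 and 3. Over the 28 libraries other than that pair it was 0.559 to 23.1 FPKM, with the highest value in 0.4 mm replicate 1. The median in 1.4 mm replicate 2 thus lay within the range of the 1.2 mm medians. Overlap between the lengths was not counted gene by gene for these 44. Leaving out all 53 took away the 44 calls and left the 1329 others, so this is no independent check of those. Of the 44 IDs, 15 had another among them within 5% in both replicates. Whether such IDs are near-identical copies that share reads was not tested, and their single values are uncertain.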

How the data were processed

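Per the labels, libraries were made from polyadenylated RNA with a directional kit. The authors deposited FPKM per transcript entry, named by gene ID only, and the submitters' processing notes list HISAT2 2.1.1 and StringTie 2.1.4. Which genome build was used is not given here in any source. From low values of 2 libraries whole reads could not be recovered, so no count model or counting interval was used. Here FPKM of the 48494 entries were summed per ID, since rows were ordered differently in each library. The filter asked for 1 FPKM or more in 3 or more libraries. The test was limma 3.58.1 on log2(FPKM + 1), with the 10 lengths as 1 factor and a trended prior variance. The pseudocount of 1 understates changes of low genes. Single values per library were compared by exact permutation tests (scipy 1.17.1).

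IDs printed are the 2 largest rises and falls among called genes with at least 10 FPKM at the higher length and no overlap, and the 2 widest spreads per length among genes not called. Lists of anther cell markers could not be tested without names. The comparison, the lists and the tests were chosen with earlier results of these data known. Alternatives were another pseudocount, no filter, other scalings, weights, blocks, a fit on 6 libraries and each library left out. Small RNA libraries were not used.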

Additional observations from a re-analysis of the deposited data

How the results depend on the processing

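Against 1373 called genes, the fit on the 6 libraries alone gave 0 (limma, smallest adjusted p = 0.558; 2139 at an unadjusted p under 0.05). Leaving out each library in turn gave 447 to 2365, and leaving out 1.2 mm replicate 3 with 1.4 mm replicate 2, chosen after seeing the data, 2122. The cause was not tested. The other 13 alternatives gave 1178 to 1665 genes. Among them were quantile normalization with 1639 (50.2% higher), a sum without the 10 IDs that hold at least 1% of a library with 1624 (52.3% higher), and sample weights estimated gene by gene with 1355 (68.0% higher). A pseudocount of 0.1 gave 1260, of which 1003 were shared.

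With the replicate number as a block 1393 genes were called, 1337 of them shared. Deviations of same-numbered libraries correlated at -0.205, 0.014 and -0.078, so the numbers were not taken as a pairing. The number carried in the deposited names, as a random block, gave 1379.

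The share of FPKM in the 1000 most abundant genes was 49.7% ± 4.13 at 1.2 mm and 51.6% ± 8.99 at 1.4 mm (SD, n = 3; exact permutation p = 0.9, adjusted p = 0.9). Its difference of 1.87 points ranged from -3.17 to 5.47 over the libraries left out, and was negative without 1.4 mm replicate 1 (-3.17) and without 1.2 mm replicate 1 (-0.359). By median SD the 1.2 and 1.4 mm replicates ranked 3 and 2 of the 10 sizes, 2 and 3 with a pseudocount of 0.1, and 1 and 3 with quantile normalization. The differences in position kept their direction in all 11 alternatives each, at 14.1 to 31.7 points for genes higher at 1.6 mm and 19.3 to 39.6 for genes lower there. Depth is unknown, so how far counting error adds to the spread of low genes cannot be given.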

Other observations

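By the chromosome number carried in the IDs, the share of tested genes called higher at 1.4 mm ran from 2.01% (chromosome 6) to 4.94% (chromosome 10), and the share called lower from 1.81% (chromosome 11) to 2.84% (chromosome 6). On chromosome 10 it was 3.87% without the 15 genes that were high in 1.4 mm replicates 1 and 3 alone. Another 5 of those genes were among the 37 tested IDs that carry no chromosome number, none of which was otherwise called. In the order of the IDs, 153 of the 776 rising genes and 107 of the 597 falling genes stood next to another tested gene called in the same direction. The longest runs were 6 rising and 4 falling genes, and the run of 6 lay on chromosome 10. The genes high in 1.4 mm replicates 1 and 3 alone were kept in these counts. No expected count was set beside them, so clustering was not tested.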
